A study of Mus musculus with 4 samples.

Results

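The collagen alpha chain genes were examined in fibroblasts without PTIP and in their controls. Members were all genes whose mouse symbol is Col, a type number, the letter a and a chain number, each read on its brightest probe set that carries a single gene symbol. This gave 42 of the 18193 genes with such a probe set. Of the 42, 31 reached a mean signal of 47.68, a level filter set at percentile 40 of the probe sets, and were tested among 12509 genes. The other 11 lay below it. Fibrillar chains made up 11 of the 42, type IV basement membrane chains 6, FACIT chains, which sit on fibrils and have interrupted triple helices, 9, and all other types 16. Col6a6 and Col28a1 were not analysed here. The groups were PTIP -/- cells (2 arrays) and PTIP +/+ cells (2 arrays), both immortalized mouse embryonic fibroblasts with loxP-flanked PTIP alleles, grown in serum and selected with puromycin. PTIP -/- cells had been infected with a Cre retrovirus, whose recombinase cuts out DNA between loxP sites, and the cells labelled PTIP +/+ with the empty vector. The RNAs are numbered 1 and 2 within a genotype. What a number stands for (culture, infection, day) and whether the cells were clones is not in the labels, so p-values measure only the spread between these RNAs.

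Collagens are the main structural proteins of the extracellular matrix and a leading product of fibroblasts. Chains wind in threes into a triple helix in the endoplasmic reticulum after their prolines and lysines have been hydroxylated, and are trimmed and crosslinked outside the cell. Fibrillar collagens bear tension, type IV collagen forms the sheet of basement membranes, and type VI forms beaded filaments near the cell surface. PTIP, encoded by Paxip1, is a subunit of the MLL3/MLL4 histone methyltransferase complexes.

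Paxip1 read 43.5 and 74.6 in PTIP -/- replicates 1 and 2, against 1029.5 and 1040.1 in PTIP +/+, 18.2-fold lower in PTIP -/-, which is the direction of the labels (limma log2 difference -4.18 ± 0.36, SE, adjusted p = 0.999). Over all genes (not independent of each other) log2 signals correlated at 0.945 and 0.969 between arrays of the same number and at 0.883 and 0.904 between arrays of the same genotype. The fibroblast markers Vim and Fn1 were high on every array (27096.7 to 39291.8), whereas Lum lay between 31.7 and 61.6. S100a4 overlapped between the numbers, at 22709.1 and 29618.0 in number 2 against 24673.5 and 27291.3 in number 1 (PTIP -/- and PTIP +/+). Pdgfrb did so too, at 2766.3 and 4021.4 against 4378.2 and 3883.7. Vim and Fn1 did not overlap between the numbers and were 1.17-fold and 1.04-fold higher in number 2. The fibroblast markers Thy1 and Pdgfra and the tendon marker Tnmd did not overlap either and were lower in number 2. They did not pass between the numbers (limma adjusted p = 0.11, 0.0736 and 0.102). Of all genes 25.5% did not overlap with number 2 higher, and 29.7% with number 2 lower. Thy1 read 1500.7 and 239.2 on the number 2 arrays of PTIP -/- and PTIP +/+, against 14822.9 and 16080.1 on the number 1 arrays, Pdgfra 174.2 and 583.2 against 3563.4 and 5010.1, and the tendon marker Tnmd 48.8 and 5.8 against 1359.0 and 1895.5. Of the other tendon markers Scx lay higher in number 2, at 173.7 and 77.3 against 74.3 and 65.5 in number 1. Mkx was 1.39-fold lower in number 2, at 94.2 and 61.5 against 102.2 and 109.5. Fewer cells of a type and less RNA per cell cannot be told apart in such samples. Signals of different probe sets depend on the probes, so levels are compared between arrays only, not between genes.

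No collagen gene passed the genotype test, and Col10a1 and Col11a1 passed the test between the numbers. With limma 0 of 31 collagens and 0 of 12509 genes differed between genotypes at an adjusted p under 0.05 (percent called 0.0, adjusted p = 0.999 for every tested collagen), and at an unadjusted p under 0.05 it was 1 collagen, Col18a1 on the lower side, beside 2.29% of all genes in either direction and 0.943% lower. For 1 gene, 2 arrays a side allow an exact two-sided permutation p no smaller than 0.333. Of the 31, 16 were lower and 15 higher in PTIP -/-, around a median log2 difference of -0.06, beside 0.05 for all genes (43.9% of all genes lower and 56.1% higher). The all-gene median was -0.13 with arrays centred on their medians. The median size of the difference, sign aside, was 0.53 for genotype and 0.89 for number in collagens, and 0.24 and 0.37 in all genes.

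**Figure D1:**
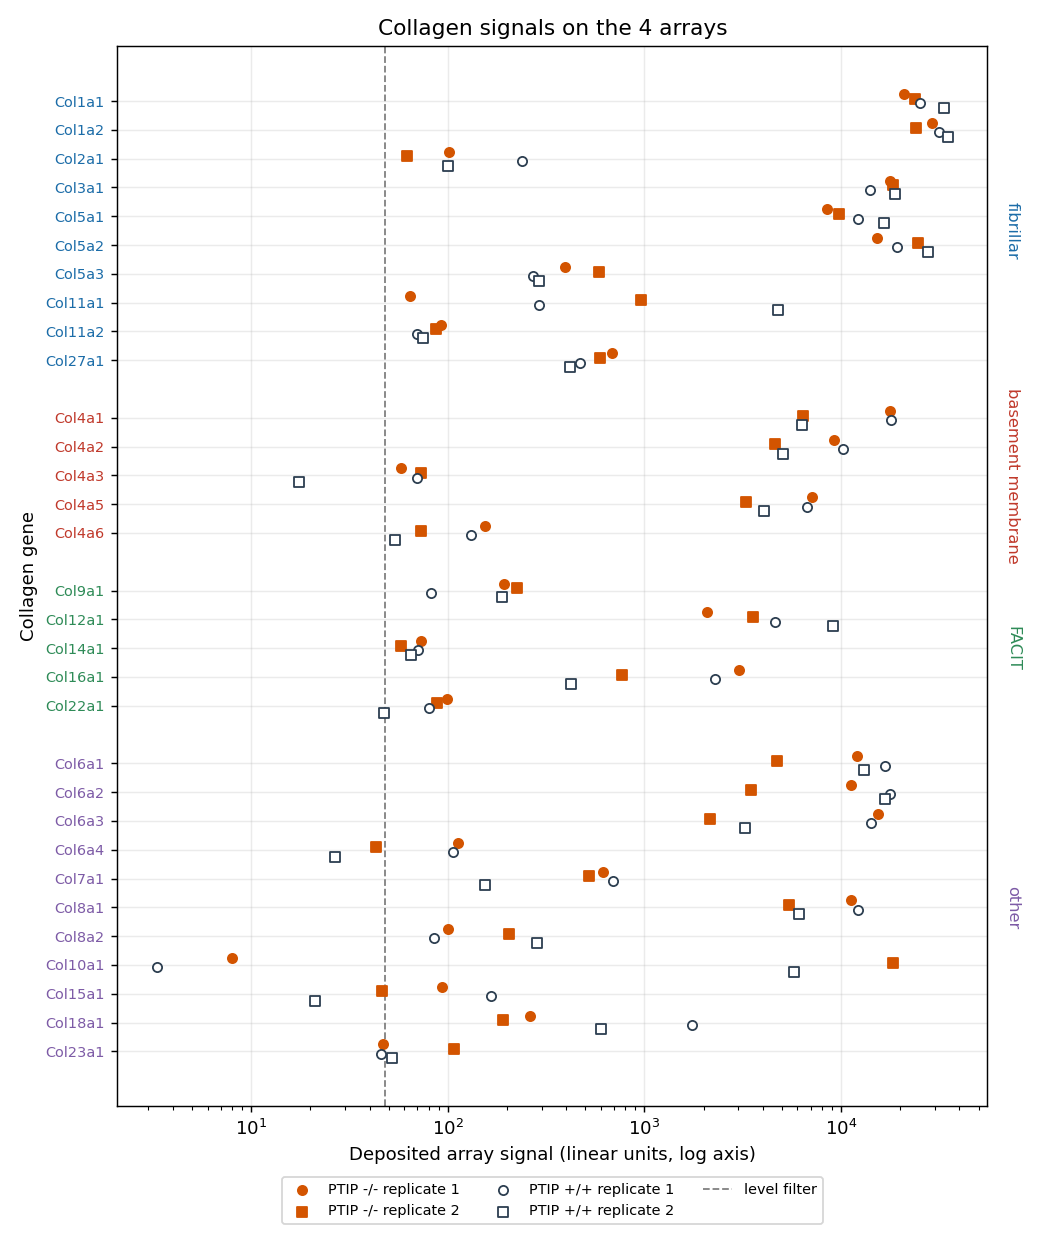
Deposited signal (linear units, log axis) of the 31 collagen genes that reached the level filter, by class, with PTIP -/- filled and PTIP +/+ open, replicate 1 as circles and replicate 2 as squares, and the filter at 47.68 as a dashed line. Col10a1 is at 8.0 and 3.3 on the number 1 arrays and at 18330.3 and 5786.5 on the number 2 arrays, while Col1a1, Col1a2 and Col3a1 keep all 4 arrays close together.

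The agreement of the genotype difference between the numbers was judged array against array, which has no test. At least 1.5-fold lower in PTIP -/- within both numbers were 5 of 31 collagens, Col2a1, Col6a2, Col11a1, Col12a1 and Col18a1, a share of 16.1% beside 2.21% of all genes. At least 1.5-fold higher within both was 1, Col10a1, or 3.23% beside 3.44% of all genes, and with signals under the filter raised to it this count was 0 (2.78% of all genes). Col15a1 was the single member that differed by 1.5-fold in opposite directions, beside 2.31% of all genes, but both its number 2 arrays lay under the filter, and with signals raised the count was 0 (1.69% of all genes). In number 1 alone 6 collagens were at least 1.5-fold lower and 2 higher (6.1% and 10.9% of all genes), and in number 2 alone 8 were lower and 9 higher (11.2% and 16.5% of all genes).

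**Figure D2:**
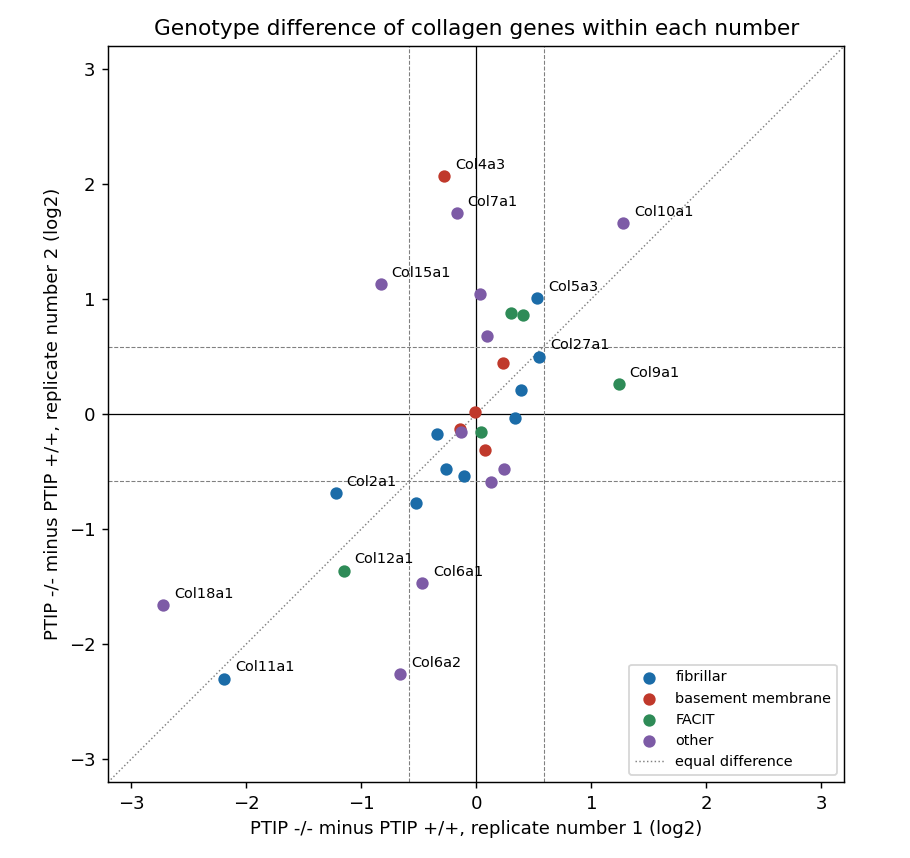
Log2 difference PTIP -/- minus PTIP +/+ in number 1 (horizontal axis) and in number 2 (vertical axis) for the 31 tested collagens, coloured by class, with dashed lines at 1.5-fold and a dotted line where both are equal. Col11a1 (-2.19 and -2.30), Col18a1 (-2.72 and -1.66) and Col12a1 (-1.15 and -1.36) lie far down in both, whereas Col7a1 (-0.17 and 1.75) is off the zero line in number 2 alone.

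Among the fibrillar chains, the 2 chains of type I collagen, the main fibril of skin, bone and tendon, were 1.29-fold (Col1a1) and 1.25-fold (Col1a2) lower in PTIP -/-. Col1a1 read 20897.1 and 23821.2 in PTIP -/-, against 25065.2 and 33210.9 in PTIP +/+. Its mean log2 signal was 14.45 ± 0.13 in PTIP -/- and 14.82 ± 0.29 in PTIP +/+ (SD, n = 2 each), a log2 difference of -0.37 ± 0.29 (SE). Col1a2 read 29164.2 and 24095.8 against 31421.0 and 34945.8, a difference of -0.32 ± 0.26 (SE). For both genes the arrays of the genotypes did not overlap, which 7 collagens and 12.1% of all genes showed on the lower side (5 and 16.6% on the higher side), but neither difference passed the limma test (adjusted p = 0.999). The strongest signals of any probe set were 36579.2 to 40325.4 per array, which the type I probe sets approach, and dimmer probe sets gave -0.66 for Col1a1 and -0.46 and -0.57 for Col1a2. Col3a1, the chain of type III collagen, which joins type I in skin and vessel walls, read 17744.2 and 18454.7 against 14022.3 and 18778.3. Its genotypes overlapped, and its difference of 0.16 ± 0.28 (SE) was -0.02 with centred arrays and 0.43 with the probe sets averaged. On its second probe set the genotypes did not overlap, at 2076.7 and 1633.8 in PTIP -/- against 928.5 and 1374.6 in PTIP +/+ (0.71).

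The type V chains, which start type I fibrils and set their width, lay on different sides. Col5a1 read 8463.1 and 9721.8 in PTIP -/-, against 12171.7 and 16573.0 in PTIP +/+, 1.57-fold lower (log2 -0.65 ± 0.29, SE). Its other probe sets gave -0.79 and -0.83, so 3 of 3 lay on the lower side. Its partner chain Col5a2 overlapped between genotypes at 15245.2 and 24530.8 against 19335.6 and 27694.0 (-0.26 ± 0.38, SE). On a second Col5a2 probe set the genotypes did not overlap, at 2550.1 and 3916.8 in PTIP -/- against 4274.7 and 6495.2 in PTIP +/+ (-0.74). Col5a3, the chain of a rarer type V molecule, was higher in PTIP -/- on both arrays, at 393.9 and 588.2 against 272.0 and 291.6 (0.77 ± 0.31, SE). None of these differences passed.

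Col11a1 had the most negative genotype difference of the fibrillar chains and a still larger one between the numbers. It encodes a chain of type XI collagen, the minor fibrillar collagen that nucleates cartilage fibrils and is also made in other connective tissue. Col11a1 read 64.1 and 965.6 in PTIP -/- replicates 1 and 2, against 291.6 and 4752.2 in PTIP +/+ replicates 1 and 2. In PTIP -/- it was 4.55-fold lower within number 1 and 4.92-fold within number 2, and the difference over all arrays was -2.24 ± 1.96 (SE). It was -0.29 without PTIP -/- replicate 1, -4.20 without PTIP -/- replicate 2, -4.26 without PTIP +/+ replicate 1 and -0.23 without PTIP +/+ replicate 2. Each of these fits set 1 array of a genotype against a number 1 and a number 2 array of the other. Part of the number difference therefore entered them. A second probe set gave -3.84 and -2.03 within the numbers, but the first value rests on a signal under the filter (18.8 in PTIP -/- replicate 1). Its type XI partner Col11a2 stayed near the filter at 91.8 and 86.9 against 69.9 and 75.0 (0.30 ± 0.24, SE). Col2a1, the cartilage chain that shares fibrils with type XI, was also low at 101.7 and 62.0 in PTIP -/-, against 237.5 and 100.2 in PTIP +/+, and 2.34-fold and 1.62-fold lower within the numbers (-0.96 ± 0.55, SE). Col27a1, a fibrillar chain of growing cartilage, was higher in PTIP -/- on both arrays, at 687.6 and 591.3 against 470.1 and 417.5 (0.53 ± 0.26, SE), and 0.82 on a second probe set. With Col24a1 below the filter, 6 of the 10 tested fibrillar chains were lower and 4 higher in PTIP -/-, around a median of -0.29.

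The 5 tested type IV chains of the basement membrane had lower mean signals in number 2, and none passed between the genotypes. Col4a1 read 17793.7 and 6403.9 in PTIP -/- replicates 1 and 2, against 17927.5 and 6301.8 in PTIP +/+ replicates 1 and 2. Col4a2, which wraps with Col4a1 into the common type IV molecule, read 9256.0 and 4627.8 against 10171.0 and 5063.1. Each pair of same-numbered arrays agreed within 1.10-fold for both genes, with genotype differences of 0.01 ± 0.77 and -0.13 ± 0.55 (SE). The first became -0.17 with centred arrays. Col4a5, which forms its own molecules with Col4a6 in muscle and skin basement membranes, read 7087.6 and 3274.1 in PTIP -/-, against 6697.7 and 4059.5 in PTIP +/+. Col4a6 read 154.4 and 73.1 against 131.8 and 53.9. For both genes each number 2 array lay below each number 1 array. Col4a3, a chain of kidney, lung and eye basement membranes, lay about the filter at 57.7 and 73.4 against 70.0 and 17.5. Its numbers overlapped, and its lower mean in number 2 rests on the 17.5 of PTIP +/+ replicate 2, under the filter. In PTIP -/- it was higher in number 2. The median genotype difference of the 5 tested type IV chains was 0.01, with 2 lower and 3 higher, and -0.17 with centred arrays. Col4a4 lay below the filter on every array.

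Among FACIT chains, Col12a1 was lower in PTIP -/- within both numbers. Type XII collagen decorates type I fibrils in tissue under tension. Col12a1 read 2090.1 and 3555.9 in PTIP -/-, against 4635.1 and 9147.2 in PTIP +/+, 2.39-fold lower (log2 -1.26 ± 0.49, SE). The genotypes did not overlap, and a second bright probe set gave -0.94 in number 1 and -1.48 in number 2. Col16a1, a chain of small fibrils in skin and cartilage, was instead divided by number. It read 3040.3 and 771.2 in PTIP -/- replicates 1 and 2, against 2295.9 and 424.6 in PTIP +/+ replicates 1 and 2 (genotype difference 0.63 ± 1.11, SE). Col9a1, a chain of the FACIT on cartilage fibrils, read 193.3 and 226.0 against 82.1 and 188.2 (0.75 ± 0.48, SE). Col22a1, a chain of tissue junctions, read 98.7 and 87.7 against 80.0 and 47.6, and Col14a1, which binds fibrils in skin and tendon, 72.6 and 58.0 against 70.4 and 64.6. Of these last 3, Col9a1 and Col22a1 did not overlap between genotypes, and Col14a1 did. On a second Col9a1 probe set the genotypes overlapped, at 31.1 and 220.3 in PTIP -/- against 29.7 and 121.4 in PTIP +/+. There both number 2 arrays lay above the number 1 arrays, which were under the filter. The 5 tested FACIT chains had 2 lower and 3 higher, around a median of 0.59. That median is the difference of Col22a1, whose PTIP +/+ replicate 2 signal of 47.6 lay just under the filter. It was 0.23 with no level filter.

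Type VI collagen needs 3 chains, and here they were not alike. Col6a1 read 12045.7 and 4716.5 in PTIP -/- replicates 1 and 2, against 16676.7 and 13027.8 in PTIP +/+ replicates 1 and 2. Col6a2 read 11171.5 and 3471.8 against 17668.7 and 16636.3. PTIP -/- replicate 2 was thus the low array for both, with PTIP -/- 2.76-fold and 4.79-fold lower in number 2 and 1.38-fold and 1.58-fold lower in number 1. The differences over all arrays were -0.97 ± 0.54 and -1.46 ± 0.63 (SE). Without PTIP -/- replicate 2, which sets PTIP -/- replicate 1 against both PTIP +/+ arrays, they were -0.29 and -0.62. A second Col6a2 probe set gave -0.60 and -2.07 within the numbers. Col6a3, the largest chain, was low on both number 2 arrays, at 15461.2 and 2160.7 in PTIP -/- replicates 1 and 2, against 14125.0 and 3250.7 in PTIP +/+ replicates 1 and 2. Its genotype difference was -0.23 ± 1.25 (SE). The related chain Col6a4 was dim, at 113.2 and 42.9 against 106.7 and 26.8.

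Col18a1 had the smallest genotype p of the collagens. It encodes type XVIII collagen, a heparan sulfate proteoglycan of basement membranes whose C-terminal fragment is endostatin. Col18a1 read 262.5 and 189.9 in PTIP -/- replicates 1 and 2, against 1735.2 and 599.4 in PTIP +/+. Every PTIP -/- array lay below every PTIP +/+ array, 6.61-fold lower in number 1 and 3.16-fold in number 2. The mean log2 signal was 7.80 ± 0.33 in PTIP -/- and 9.99 ± 1.08 in PTIP +/+ (SD, n = 2 each), a difference of -2.19 ± 0.60 (SE) with an unadjusted limma p of 0.0206 and an adjusted p of 0.999. The second probe set gave -2.63 and -1.60 within the numbers. Over the 12 alternative fits the difference ran from -2.96 to -1.42, always on the lower side, with the adjusted p from 0.601 to 1.0. RefSeq gives the gene more than 1 start site, and the array does not tell which transcript was read. The 250 bases before 2 of these starts are shown because this gene had that smallest p. They lie at chr10:77113706-77113955 and chr10:77166531-77166780 of GRCm38.p6, both on the minus strand, and capitals mark matches to the motifs listed further on.
Col18a1 first window: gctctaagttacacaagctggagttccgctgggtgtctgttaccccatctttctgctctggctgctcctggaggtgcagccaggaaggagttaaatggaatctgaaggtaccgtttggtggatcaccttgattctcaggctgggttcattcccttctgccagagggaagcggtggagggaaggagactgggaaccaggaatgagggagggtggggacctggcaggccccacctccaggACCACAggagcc
Col18a1 second window: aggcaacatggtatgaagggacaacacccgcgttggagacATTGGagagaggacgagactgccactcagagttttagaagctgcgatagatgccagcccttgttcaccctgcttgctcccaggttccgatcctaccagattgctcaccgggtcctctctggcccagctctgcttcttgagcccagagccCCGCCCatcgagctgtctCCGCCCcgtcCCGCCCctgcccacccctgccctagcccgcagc
The first window held 1 RUNX match 12 bases before the start, and the second 3 GC boxes, at 61, 43 and 33 bases before the start, and a CCAAT box at 210.

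The remaining chains were mostly divided by the replicate number. Col8a1, a chain of the hexagonal network under endothelium and in the eye, read 11204.4 and 5430.5 in PTIP -/- replicates 1 and 2, against 12232.9 and 6081.7 in PTIP +/+ replicates 1 and 2. Its partner Col8a2 read 100.4 and 203.5 against 85.1 and 283.2. The partner chains thus lay on opposite sides between the numbers and overlapped between the genotypes. Col7a1, the anchoring fibril of the epidermis, read 613.8 and 520.3 against 692.1 and 154.7, with PTIP +/+ replicate 2 as the low array. Col15a1, a basement membrane zone collagen, read 93.4 and 46.1 in PTIP -/- against 165.7 and 21.1 in PTIP +/+, and the transmembrane chain Col23a1 46.8 and 107.2 against 45.9 and 52.2. Both lay around the filter, and the Col15a1 difference of 0.15 was -0.03 with centred arrays and -0.05 with quantile normalization. The 11 tested members of the class of all other types, which also takes in the type VI chains, Col10a1 and Col18a1, had 6 lower and 5 higher in PTIP -/-. Their median was -0.12.

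The 11 members below the filter were Col4a4, Col6a5, Col9a2, Col9a3, Col13a1, Col17a1, Col19a1, Col20a1, Col24a1, Col25a1 and Col26a1. Their signals ran from 1.7 to 113.1, and 3 of them had an array above the filter. No fold is given for them.

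**Figure D3:**
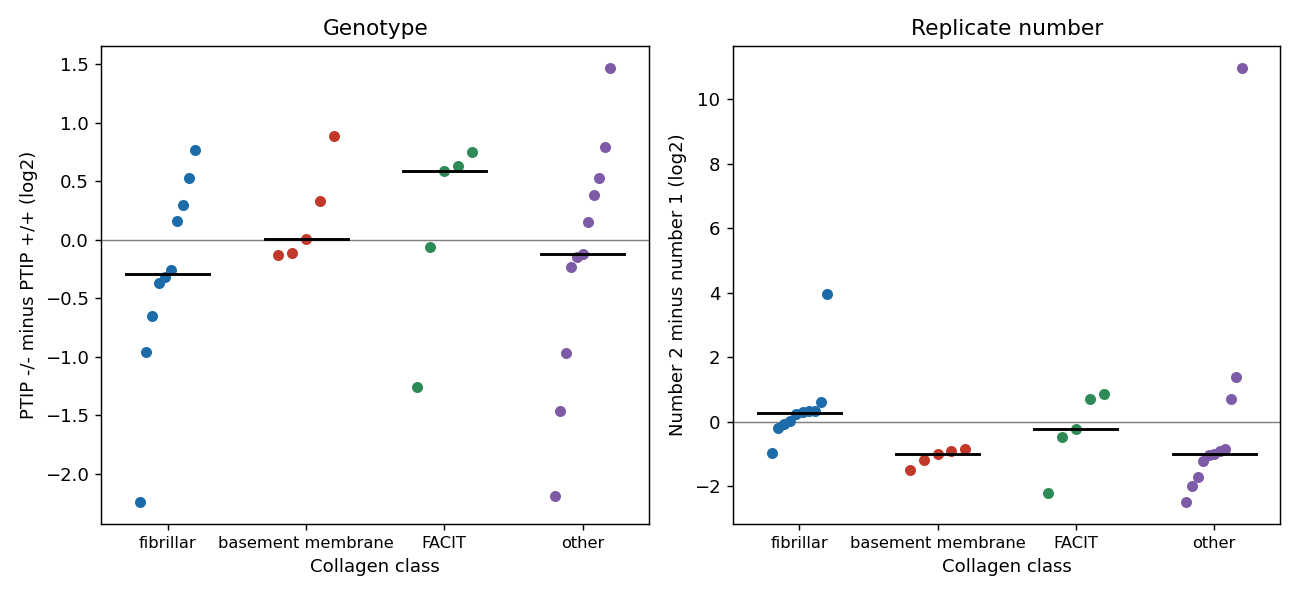
Log2 difference of each tested collagen by class, for PTIP -/- minus PTIP +/+ (left) and number 2 minus number 1 (right), with a black bar at the class median. The genotype medians lie between -0.29 and 0.59, while type IV chains are all below 0 for number, around -1.0, and Col10a1 stands at 10.97.

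The arrays numbered 2 were then compared with those numbered 1, with genotype in the model. Col10a1 and Col11a1 were higher in number 2 and passed, and 0 collagens passed on the lower side. Of all genes 80 passed, 62 higher (0.496%) and 18 lower (0.144%), so that 2 of 31 collagens (6.45%) stand beside 0.64% of all genes. At an unadjusted p under 0.05 it was 16 collagens, beside 22.8% of all genes. In mean signal 19 collagens were lower in number 2 and 12 higher, beside 53.8% and 46.2% of all genes. Number 2 and number 1 did not overlap in 12 collagens on the lower side and 6 on the higher side, beside 29.7% and 25.5% of all genes. At least 2-fold higher in number 2 within both genotypes were 3 collagens, Col8a2, Col10a1 and Col11a1, or 9.68% beside 4.36% of all genes. At least 2-fold lower within both were 8, Col4a1, Col4a2, Col4a6, Col6a3, Col6a4, Col8a1, Col15a1 and Col16a1, or 25.8% beside 3.3% of all genes. With signals under the filter raised to it Col15a1 dropped out, leaving 7, or 22.6% beside 2.92% of all genes. None differed by 2-fold in opposite directions in the genotypes, as 0.424% of all genes did.

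**Figure D4:**
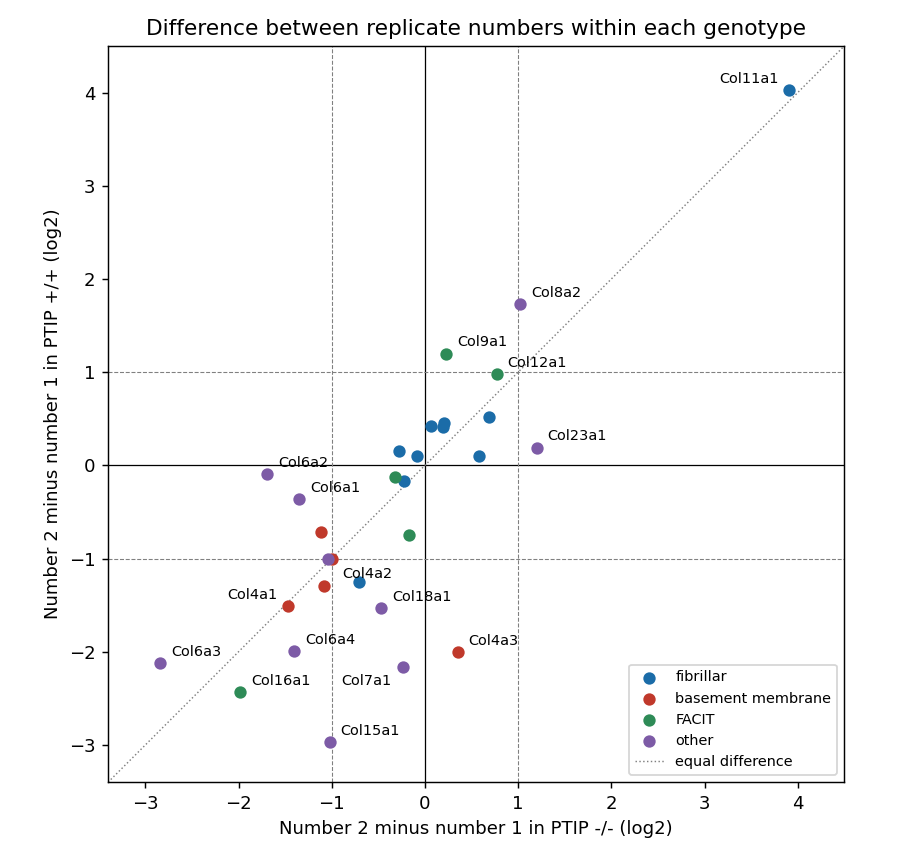
Log2 difference number 2 minus number 1 in PTIP -/- (horizontal axis) and in PTIP +/+ (vertical axis) for 30 tested collagens, coloured by class, with dashed lines at 2-fold and a dotted line where both are equal. Col10a1 (11.16 and 10.78) is off the range and not drawn. Col11a1 lies at 3.91 and 4.03, Col6a3 at -2.84 and -2.12 and Col16a1 at -1.98 and -2.43, close to the dotted line, whereas Col6a2 (-1.69 and -0.09) and Col7a1 (-0.24 and -2.16) are low in number 2 in 1 genotype.

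Col10a1 had the largest difference between the numbers of all collagens tested. Type X collagen forms a network in the matrix of hypertrophic cartilage. Col10a1 read 18330.3 in PTIP -/- and 5786.5 in PTIP +/+ on the number 2 arrays, against 8.0 in PTIP -/- and 3.3 in PTIP +/+ on the number 1 arrays, all on 1 probe set. Both number 1 arrays lay under the filter, so number 2 was at least 384-fold higher in PTIP -/- and at least 121-fold higher in PTIP +/+. The fitted difference was 10.97 ± 0.22 (SE), which rests on the signals below the filter and is 7.75 with these raised to it, and the limma adjusted p = 0.027. Between the genotypes PTIP -/- was 3.17-fold higher in number 2, and no fold can be given in number 1. Over 12 alternative fits the adjusted p ran from 0.000671 to 0.318 and 8 kept the call. The call was lost with no level filter. It was also lost without PTIP -/- replicate 1, PTIP +/+ replicate 1 or PTIP +/+ replicate 2, in fits of 3 arrays with no genotype term.

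Col11a1 read 965.6 in PTIP -/- and 4752.2 in PTIP +/+ on the number 2 arrays, against 64.1 in PTIP -/- and 291.6 in PTIP +/+ on the number 1 arrays. It was 15.1-fold and 16.3-fold higher in number 2 within PTIP -/- and PTIP +/+ (log2 3.97 ± 0.20, SE, limma adjusted p = 0.0412). Number 2 lay above number 1 on every array. The second probe set gave 5.61 and 3.80, the first of which rests on the signal of 18.8 under the filter. The call held in 6 of 12 alternative fits, with the adjusted p from 0.00281 to 0.474. It was lost without a level filter (0.318), without a genotype term (0.176), and in each of the 4 fits with an array left out. Those fits had no genotype term either, so the loss of an array cannot be told from the loss of the term. Col10a1 and Col11a1 are known from cartilage, so chondrocyte markers are given beside them. The 5 listed, Sox9, Acan, Matn1, Cnmd and Hapln1, summed to 170.9 and 206.7 on the number 2 arrays of PTIP -/- and PTIP +/+, against 281.7 and 276.6 on the number 1 arrays. Of the 5, Cnmd and Hapln1 were below the filter on every array and 0 were listed at 0. Sox9 and Acan, the 2 that were tested, did not pass between the numbers. The fat cell marker Fabp4 lay higher on both number 2 arrays, as Col10a1 did, at 4029.7 and 3351.8 in number 2 against 16.1 and 60.2 in number 1, with Adipoq below the filter throughout. The neural marker Sox2, whose mean was under the filter and which was not tested, also lay higher, at 365.7 and 755.1 against 11.9 and 1.4. Of the other neural markers Tubb3 lay lower, at 79.3 and 51.0 against 269.4 and 291.0, and Sox10 read 172.8 and 133.8 against 130.7 and 142.7. The part of cell makeup in these differences was not tested.

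The bases before the starts of Col10a1 and Col11a1 are shown beside those of Col1a2, whose signals lay within 1.45-fold of each other on the arrays that share a number or a genotype. The windows are the 250 bases before the RefSeq start, from GRCm38.p6 and on the plus strand, at chr10:34389731-34389980 for Col10a1, chr3:114030290-114030539 for Col11a1 and chr6:4505368-4505617 for Col1a2. Capitals mark matches, on either strand, to 5 short motifs. A TATA box was searched as the letters TATAAA. The box that the factor NF-Y is known to bind was searched as the letters CCAAT. For a GC box, which Sp1 binds, the letters were GGGCGG. For AP-1 they were TGANTCA, where N is any base, and for RUNX factors they were TGTGGT.
Col10a1: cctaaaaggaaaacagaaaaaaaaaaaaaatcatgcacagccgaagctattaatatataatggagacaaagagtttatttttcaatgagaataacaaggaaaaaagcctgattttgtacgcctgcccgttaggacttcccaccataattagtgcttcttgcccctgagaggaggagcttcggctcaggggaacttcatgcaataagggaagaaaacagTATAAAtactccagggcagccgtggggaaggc
Col11a1: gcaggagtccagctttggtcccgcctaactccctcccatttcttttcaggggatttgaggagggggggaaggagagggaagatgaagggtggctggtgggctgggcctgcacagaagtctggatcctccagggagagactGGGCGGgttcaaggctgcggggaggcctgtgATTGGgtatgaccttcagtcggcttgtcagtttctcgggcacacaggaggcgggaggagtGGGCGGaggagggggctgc
Col1a2: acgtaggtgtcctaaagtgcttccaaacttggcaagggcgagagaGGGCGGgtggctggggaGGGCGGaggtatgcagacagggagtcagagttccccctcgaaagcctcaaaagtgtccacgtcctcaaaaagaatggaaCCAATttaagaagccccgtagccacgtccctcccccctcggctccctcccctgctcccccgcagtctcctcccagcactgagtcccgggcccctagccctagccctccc
Col10a1 held a TATA box 32 bases before its start and no match to the others. Col11a1 held a CCAAT box at 79 and GC boxes at 110 and 19 bases before its start, and Col1a2 a CCAAT box at 109 and GC boxes at 205 and 188. Windows were found for 24 of the 31 tested collagens. Counting a gene once if any of its windows held the motif, a GC box was present in 17 of the 24 and in 35.4% of all 27025 genes with a window. These 27025 include genes that were not tested here, so the shares are not of like sets. A CCAAT box was present in 11 and in 37.5% of all genes, and a TATA box in 3 (Col3a1, Col10a1 and Col11a2) and in 14.3%. A RUNX site was present in 2 (Col8a1 and Col18a1) and in 15.9% of all genes, and an AP-1 site in 1 (Col6a1) and in 7.82%. Of all 32851 windows, in the same order of motifs, 32.7%, 33.8%, 12.4%, 14.0% and 6.75% held a match. No motif overlapped another in the windows shown. These are matches of letters and say nothing of binding.

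On the lower side of number 2, the largest differences were those of Col6a3 and Col16a1. Col6a3 read 2160.7 and 3250.7 in number 2, against 15461.2 and 14125.0 in number 1, 5.58-fold lower in number 2 (log2 -2.48 ± 0.27, SE). Col16a1 read 771.2 and 424.6 in number 2, against 3040.3 and 2295.9 in number 1, 4.62-fold lower (-2.21 ± 0.23, SE). Both genes had every number 2 array below every number 1 array. The type IV chains Col4a1, Col4a2, Col4a5 and Col4a6 were 2.81-fold, 2.00-fold, 1.89-fold and 2.27-fold lower in number 2, and Col8a1 2.04-fold. None passed, the smallest limma adjusted p being 0.0736 for Col16a1 and 0.0738 for Col6a3. With signals raised to the filter, or with a filter at the 60th percentile, Col4a1, Col6a3 and Col16a1 passed as well, Col16a1 also passed with quantile normalization (0.0493), and 10 collagens passed with a variance trend and robust moderation. By class the median difference between the numbers was 0.27 for fibrillar, -1.0 for type IV, -0.22 for FACIT and -1.0 for other chains, beside -0.05 for all genes. The FACIT median was 0.71 with the filter at the 60th percentile and 0.52 with averaged probe sets, and the fibrillar one -0.03 with averaged probe sets, so these directions depend on the setting. Within PTIP -/- and PTIP +/+ the type IV medians were -1.08 and -1.29, and those of the other chains -1.02 and -1.01.

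Collagen genes that are direct neighbours on a chromosome, in the RefSeq table of GRCm38.p6, kept similar patterns over the 4 arrays in some pairs. Col4a1 and Col4a2 lie head to head on chromosome 8, with RefSeq starts 21 bases apart and each start inside the other gene. Their number differences were -1.47 and -1.51 for Col4a1, and -1.0 and -1.01 for Col4a2, in PTIP -/- and PTIP +/+. Col4a5 and Col4a6 are head to head on chromosome X with starts 1343 bases apart, and were -1.11 and -0.72, and -1.08 and -1.29. Col6a1 and Col6a2 on chromosome 10 shared the low PTIP -/- replicate 2 array. Col3a1 and Col5a2 on chromosome 1 had number differences of 0.24 ± 0.22 and 0.60 ± 0.20 (SE). Such likeness was not particular to neighbours, since Col8a1, in none of these pairs, had number differences of -1.04 and -1.01. The pairs share arrays and were not tested as pairs.

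**Figure D5:**
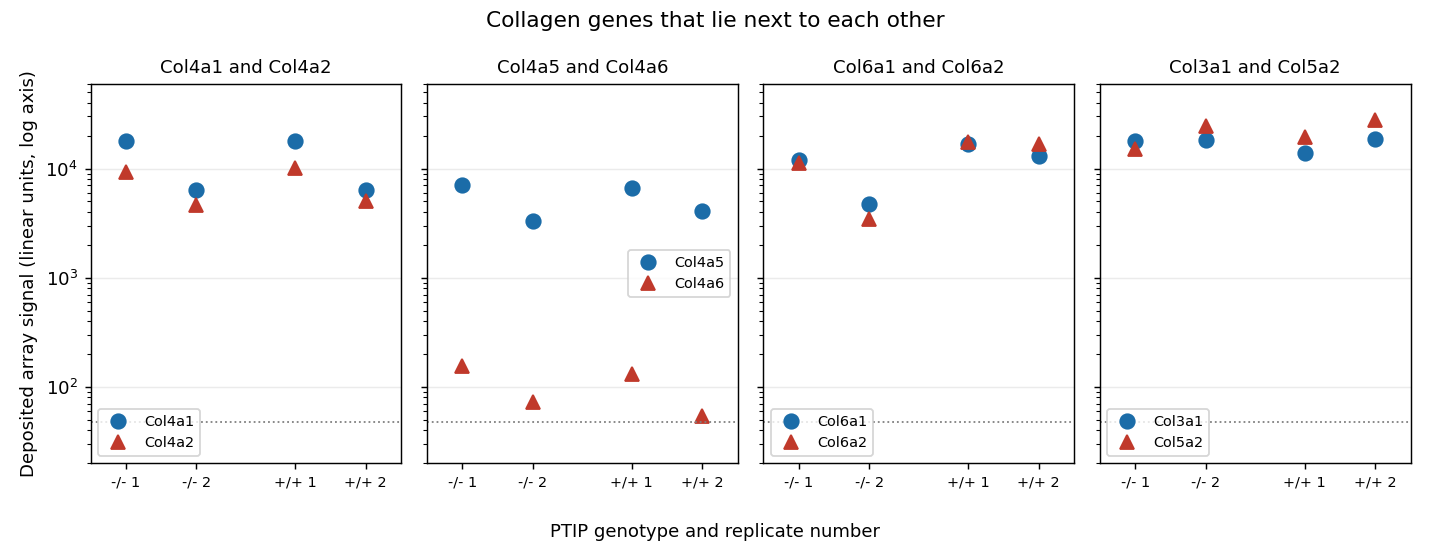
Deposited signal (linear units, log axis) of 4 pairs of neighbouring collagen genes on the 4 arrays, PTIP -/- to the left of PTIP +/+, with the level filter as a dotted line. Col4a1 and Col4a2, and Col4a5 and Col4a6, are lower on both number 2 arrays, whereas Col6a1 and Col6a2 are lowest on PTIP -/- replicate 2.

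Other genes that make, trim, bind or break down collagen are given beside all genes, of which 0.0% passed for genotype and 0.64% for number, and 43.9% were lower and 56.1% higher in PTIP -/-. At such shares a count of 0 in lists this short is no result about them. Of 18 tested genes of chain modification and folding, 9 were lower and 9 higher in PTIP -/- (median 0.03), and 0 passed. The member farthest from 0 was the lysyl hydroxylase Plod2, at 2258.0 and 1933.1 against 1563.1 and 683.8 (1.01 ± 0.48, SE). P4ha3, a prolyl hydroxylase subunit, lay lower on both number 2 arrays, at 118.8 and 56.3 in number 2 against 480.3 and 489.3 in number 1. Among the 9 tested of 12 genes of procollagen trimming and crosslinking, 4 were lower and 5 higher. The crosslinking oxidase Loxl4 read 1413.1 and 1566.9 in PTIP -/- against 810.5 and 1032.3 in PTIP +/+ (0.70 ± 0.27, SE). Of the 7 tested of 9 collagen receptors 1 was lower and 6 higher. The lower one was the integrin chain Itga10 at 56.3 and 24.8 against 90.7 and 54.2, of which 24.8 lies under the filter. In the list of TGF-beta signalling and other inducers of collagen genes 8 of 12 were lower and 4 higher. Creb3l1, a factor that activates Col1a1 in mouse bone, read 97.0 and 273.1 in PTIP -/-, against 222.8 and 1380.8 in PTIP +/+, lower within both numbers (-1.77 ± 1.07, SE), and its mean was 4.18-fold higher in number 2 (limma adjusted p = 0.118). Of the 4 tested of 8 collagenases and gelatinases 1 was lower and 3 higher. Mmp9, a gelatinase, stood farthest from 0 among those tested, at 174.9 and 79.2 against 85.1 and 83.9 (0.48 ± 0.46, SE). Of those not tested Mmp13 read 7.9 and 257.0 in PTIP -/- against 3.2 and 19.6 in PTIP +/+, and Mmp8 69.0 and 20.2 against 45.7 and 35.8. Mmp1a and Mmp1b lay below the filter on every array. Between the numbers 0 genes of these lists passed. The chondrocyte markers Sox9 and Acan, at unadjusted limma p of 0.0227 and 0.0302, differed between genotypes by 1.29 and -1.55, in opposite directions.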

How the data were processed

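RNA of 2 PTIP -/- and 2 PTIP +/+ cell samples had been hybridised to Affymetrix arrays of 45101 probe sets. Deposited intensities are linear, and per the submitters' processing notes RMA was used, with no version given. They have the same mean on all 4 arrays (500) once the top and bottom 2% are left out, unlike usual RMA output, and medians of 98.2 and 82.8 (PTIP -/-) and 83.5 and 76.0 (PTIP +/+). Background correction, probe summary and software were not stated. No direction or centring arises with 1 RNA per array.

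Log2 was taken after the single 0 became 0.1, and 64 control probe sets were dropped. Among the others, 34945 had 1 symbol, 932 several and 9160 none. Symbols were updated through gene number (34741 found in the RefSeq table of GRCm38.p6). Each gene was read on its single-symbol probe set with the highest mean log2 signal, and 12509 genes at or above 47.68 were tested. Genotype was tested in limma 3.58.1 under R 4.3.3 (lmFit, eBayes, no covariate, 2 residual degrees of freedom), and number 2 against number 1 with genotype as a term (1 residual degree of freedom), adjusted by Benjamini-Hochberg over all genes. The SE is that of the moderated fit, and for genotype it takes in the difference between the numbers. With the replicate block the genotype SE of Col11a1 was 0.20, and the gene did not pass (limma adjusted p = 0.601). Where every array of the dimmer side lay under 47.68 that signal was set to 47.68 and the fold written "at least". On simulated data of 12509 genes the number fit recovered 73.7% of genes changed by 4 on the log2 scale and 0.617% of those changed by 2, and the genotype fit 88.6% and 36.0%. Of genes changed by 1 the number fit recovered 0.148% and the genotype fit 0.151%. These simulations held no number difference beside the genotype one, and their spread came from the fit with both terms. In the data the number difference is part of the error of the genotype fit, where Paxip1 at -4.18 did not pass. The simulated genotype shares therefore do not describe that fit. Each simulated run changed only a small part of the genes, and recovery after adjustment depends on how many genes change. In the data 22.8% of all genes had an unadjusted limma p under 0.05 for number. The simulated number shares therefore do not give what the number fit recovers in these data.

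Every tested collagen is named with its signals. From the lists of collagen-related pathways, members passing a test are named, otherwise up to 4 that differ by 1.5-fold within both numbers, otherwise the farthest from 0. The cell type markers named (whole lists for fibroblast, chondrocyte, tendon and neural markers) and P4ha3 were chosen after their values were seen. The members and lists were chosen with earlier results of these data known. Same-numbered arrays deviated together from their genotype means (r = 0.686 across genes), but the labels name no shared source. Alternatives were quantile normalization, centring on array medians, other level filters, averaging the probe sets of a gene, signals raised to the filter, a variance trend with robust moderation, the replicate block, no genotype term, other folds, and each array left out. With an array left out the number fit had no genotype term, which would have left no residual degree of freedom.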

Additional observations from a re-analysis of the deposited data

Results flagged for a closer look

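Col15a1 was the single tested collagen whose genotype difference ran in opposite directions in the numbers by at least 1.5-fold. PTIP -/- minus PTIP +/+ was -0.83 on the log2 scale in number 1 and 1.13 in number 2. With 1 array a side, whether these values differ was not tested. Both number 2 arrays (46.1 in PTIP -/- and 21.1 in PTIP +/+) lay under the level filter of 47.68, so no fold can be given there.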

How the results depend on the processing

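Only 4 arrays bear on every value, and signals near the level filter have no firm order. Of 357 gene values under the alternatives, 322 kept their direction and call for genotype and 35 reversed (17 genes), and for number 319 of 357 kept both, 13 reversed (9 genes), 15 passed newly (8 genes) and 10 no longer passed (Col10a1 and Col11a1). The cause was not tested. The genotype test called 0 genes under every alternative, with 164 to 982 genes at an unadjusted p under 0.05. With the replicate block it called 0 genes and 0 collagens (982 genes at an unadjusted p under 0.05, against 286 without it), and the numbers share no stated source. The 80 genes called between the numbers were 196 with quantile normalization, 207 with centred arrays, 0 with no level filter (2401 at an unadjusted p under 0.05), 351 with a filter at percentile 60, 365 with signals raised to the filter and 893 with a variance trend. The higher share of these calls, 77.5%, was 64.1% with the stricter filter, 64.9% with raised signals, 62.5% with the trend and 44.7% without PTIP -/- replicate 2. The 2 collagens called between the numbers were 0, 5, 5 and 10 with no filter, the stricter filter, raised signals and the trend, and 1 with no genotype term.

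The fibrillar genotype median was -0.13 with quantile normalization, -0.47 with centred arrays and -0.50 with averaged probe sets, the type IV one -0.17 with centred arrays and 0.17 with no filter, and the FACIT one 0.23 with no filter. Between the numbers the median of all collagens was -0.13 with the stricter filter and -0.85 with averaged probe sets. With centred arrays the fibrillar median was 0.46 and the type IV one -0.81, with averaged probe sets the fibrillar, type IV and FACIT medians were -0.03, -1.30 and 0.52, and the FACIT one was 0.71 with the stricter filter. The count of 8 collagens at least 2-fold lower in number 2 was 4 with centred arrays and 5 with the stricter filter, that of 1 at least 1.5-fold higher in PTIP -/- was 4 with no filter, 2 with averaged probe sets and 0 with raised signals, and that of 5 lower was 3 at 2-fold. Reversed genotype differences were those of Col15a1 (-0.05 with quantile normalization, -0.03 centred, -0.41 raised), Col3a1 (-0.02 centred) and Col4a1 (-0.17 centred). Reversed number differences were those of Col1a1 (-0.03) and Col5a1 (-0.16) with averaged probe sets and Col1a2 (0.13 centred).

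Leaving out each array in turn gave 0 to 85 genes and 0 to 1 collagens called between the numbers. These fits had no number term for genotype and no genotype term for number. With the arrays then uneven, part of the number difference enters the genotype values below, and the reverse. Genotype medians ran over -0.29 to 0.34 (all collagens), -0.37 to -0.08 (fibrillar), -0.63 to 0.76 (type IV), -0.22 to 0.64 (FACIT) and -0.65 to 0.36 (other), and number medians over -0.37 to -0.17, 0.07 to 0.23, -1.40 to -0.96, -0.25 to -0.02 and -1.36 to -0.17 in the same order. Genotype differences that reversed ran over Col10a1 -4.11 to 7.05, Col14a1 -0.22 to 0.11, Col15a1 -1.34 to 1.64, Col16a1 -0.58 to 1.85, Col23a1 -0.06 to 1.13, Col3a1 -0.05 to 0.37, Col4a1 -0.75 to 0.76, Col4a2 -0.64 to 0.37, Col4a3 -0.11 to 1.89, Col4a5 -0.67 to 0.44, Col4a6 -0.31 to 0.98, Col5a2 -0.60 to 0.08, Col6a3 -1.65 to 1.19, Col6a4 -0.61 to 1.38, Col7a1 -0.29 to 1.87, Col8a1 -0.67 to 0.38, Col8a2 -0.99 to 0.75. Number differences that reversed ran over Col11a2 -0.19 to 0.21, Col18a1 -2.36 to 0.36, Col1a2 -0.33 to 0.21, Col27a1 -0.47 to 0.08, Col4a3 -1.86 to 0.21, Col5a1 -0.06 to 0.71, Col5a3 -0.17 to 0.85, Col6a2 -2.02 to 0.24.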
